A study of Mus musculus with 8 samples.

Results

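Transcripts of 10 genes that mark the loop of Henle and the distal tubule were examined in mouse kidney tubuloids, which are tubule-like structures grown in Matrigel. The genes were Umod, Slc12a1, Bsnd, Egf, Ppp1r1a, Slc12a3, Trpm6, Pvalb, Calb1 and Trpv5, and they were chosen by symbol from the 24063 genes listed, of which 19634 had at least 1 count. Most of these transcripts were present at low levels, were uneven from culture to culture, and did not differ between tubuloids treated with doxycycline (DOX) and with dimethyl sulfoxide (DMSO) beyond the spread between libraries. Calb1, the calcium buffer calbindin, was the most abundant, at 17.6 ± 22.8 TPM (a level scaled for transcript length and library total; mean ± SD, n = 8). Pvalb, which encodes the calcium-binding protein parvalbumin, had 2 counts in all.

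The thick ascending limb of the loop of Henle reabsorbs sodium chloride without water through the cotransporter NKCC2, which dilutes the tubule fluid and builds the salt gradient of the medulla. The distal convoluted tubule that follows takes up sodium chloride through the thiazide-sensitive cotransporter NCC and magnesium through TRPM6. The late convoluted and connecting tubules take up calcium through TRPV5, bind it with calbindin and extrude it into the blood. Umod encodes uromodulin, the most abundant protein of normal urine, which is made by thick ascending limb cells.

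All 8 cultures were grown from kidney fragments of mice with the genotype Pkd2fl/fl Pax8rtTA TetOCre mTmG, so the DMSO controls carried the same alleles as the DOX cultures. Doxycycline lets the rtTA activator, made under the Pax8 promoter in renal epithelium, switch on Cre, which deletes the floxed part of Pkd2, the gene for polycystin-2, and turns the mTmG membrane reporter from red to green. The labels gave the kidneys as postnatal day 7 to 10, whereas the methods of the study gave an earlier range. DOX or the vehicle DMSO was added on day 3 of culture for 3 days, and RNA was taken after 7 days in medium that contained growth factors, recombinant EGF protein among them. The culture method of the study starts with a pulse of the growth factor GDNF, meant to drive the tubuloids towards a collecting duct phenotype. As limits of the model, the fragments were retained on a strainer that lets single cells pass, the cultures also held structures without E-cadherin that did not respond to doxycycline, and cells of the unrecombined reporter colour remained after doxycycline. The 4 DMSO libraries are called DMSO 3, 5, 15 and 20 and the 4 DOX libraries DOX 9, 12, 19 and 21, by the numbers in their titles. Nothing in the labels said that they came from separate animals, so p-values measure the spread between these libraries.

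Total counts ran from 63922677 in DMSO 20 to 102716313 in DOX 12. Between 17054 and 17903 genes were detected in 6 libraries, but 13243 in DMSO 20 and 13599 in DOX 19, and the fold changes, spread and detection of the members are given below with and without these 2. Pkd2, the targeted gene, averaged 27.8 ± 6.14 TPM in DMSO and 23.8 ± 4.34 TPM in DOX libraries (SD, n = 4 each), with overlapping groups. DESeq2 gave it an adjusted p of 0.999 with a log2 fold change of -0.31 and an SE of 0.215, so the transcript level did not separate the treated libraries from the controls. Counts were per whole transcript, so reads from the floxed part were not separated from the rest.

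Umod lies on the minus strand of chromosome 7 at 119462708 to 119479262 of the mouse build GRCm38.p6, and Egf on the minus strand of chromosome 3 at 129677574 to 129755322. Both are transcribed in the thick ascending limb and distal tubule of the kidney. The 250 bases before the RefSeq start of each are shown because both were expressed in the tubuloids but differed in which cultures held them. Capitals mark GTTAAT, the letters of an HNF1 half-site, searched on both strands.
Umod, chr7:119479263-119479512, minus strand: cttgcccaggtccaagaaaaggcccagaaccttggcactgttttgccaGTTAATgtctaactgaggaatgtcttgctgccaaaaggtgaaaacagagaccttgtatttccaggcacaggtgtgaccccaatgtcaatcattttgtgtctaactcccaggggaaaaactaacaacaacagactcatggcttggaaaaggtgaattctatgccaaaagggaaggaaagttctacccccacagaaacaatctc
Egf, chr3:129755323-129755572, minus strand: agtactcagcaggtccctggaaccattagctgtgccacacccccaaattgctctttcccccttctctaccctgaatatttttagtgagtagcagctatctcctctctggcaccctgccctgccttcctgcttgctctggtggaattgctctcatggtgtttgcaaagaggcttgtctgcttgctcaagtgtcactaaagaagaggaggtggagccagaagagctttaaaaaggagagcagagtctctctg
The Umod window held GTTAAT 202 bases before the start, and the Egf window held none. Promoter windows were at hand for 7 of the 10 genes, 9 windows in all, since Egf and Pvalb had 2 each. The windows of Trpm6 and Trpv5 lay inside the gene spans given below. Umod was the only gene of these 7 with GTTAAT, which was found in 6.43% of all 32851 promoter windows of that length. Shares of all windows count each window once, whereas a gene with 2 windows could match in either. The AP-2 letters GCCNNNGGC, on either strand, were in a window of 3 of the 7 genes (Slc12a3, Trpm6 and Pvalb) and in 13.73% of all windows. The TATA box letters TATAAA, on the given strand, were in 2 of the 7 (Slc12a3 and Trpv5) and in 7.59% of all windows. A match of letters is a description of the sequence and not a binding site.

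Among the thick ascending limb genes, Umod was present in some cultures and missing from others. Its level was 12.0 TPM in DMSO 3 and 5.82 TPM in DMSO 5, while no read was counted in DMSO 15 or DMSO 20. With DOX it was 5.28 TPM in DOX 9, 4.42 TPM in DOX 12, 0 in DOX 19 and 0.0966 TPM in DOX 21. Both groups therefore held 2 libraries with at least 558 counts and 2 with at most 10 counts. A count of 0 allows up to 3 counts, which was 0.0243 TPM in DMSO 15, 0.0377 TPM in DMSO 20 and 0.0303 TPM in DOX 19. The group means were 4.46 ± 5.74 TPM in DMSO and 2.45 ± 2.80 TPM in DOX (SD, n = 4 each). In bulk RNA, fewer cells of a type and less RNA per cell cannot be told apart.

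Slc12a1 encodes NKCC2, the target of loop diuretics, and lies on the plus strand of chromosome 2 at 125152510 to 125230002. It was measured at 0.349, 2.84, 0.264 and 0 TPM in DMSO 3, 5, 15 and 20, and at 0.534, 0.930, 0 and 0.163 TPM in DOX 9, 12, 19 and 21. DMSO 5 was the highest library, and the same 2 libraries that detected the fewest genes, DMSO 20 and DOX 19, had no count. Umod and Slc12a1 did not keep a fixed proportion. The TPM of Umod was 34.4 times that of Slc12a1 in DMSO 3, 9.89 times in DOX 9, 4.75 times in DOX 12 and 2.05 times in DMSO 5, but 0.593 of it in DOX 21, and DMSO 15 had 58 counts of Slc12a1 with none of Umod.

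Bsnd encodes barttin, the subunit that ClC-K chloride channels need to work in the basolateral membrane, and lies on chromosome 4 at 106483456 to 106492243. It was found in 3 of 8 libraries, at 0.0510 TPM in DMSO 3 (7 counts), 0.782 TPM in DMSO 5 (78 counts) and 0.258 TPM in DOX 12 (34 counts). Both libraries with the highest Slc12a1 level, DMSO 5 and DOX 12, thus had the highest Bsnd level. The other 5 libraries had no count.

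Egf encodes the precursor of epidermal growth factor, which distal tubule cells cleave and release. It had 0.146, 0.972, 0.0711 and 1.58 TPM in DMSO 3, 5, 15 and 20, and 0.132, 0.298, 0 and 0.302 TPM in DOX 9, 12, 19 and 21. Its highest library was DMSO 20, in which neither Umod nor Slc12a1 had a count. Recombinant EGF protein in the medium adds no RNA to these counts.

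Ppp1r1a encodes inhibitor 1 of protein phosphatase 1 and lies on chromosome 15 at 103530279 to 103538027. It was the most even of the thick ascending limb genes and was counted in every library. Its levels were 1.28, 4.20, 1.21 and 6.69 TPM in DMSO 3, 5, 15 and 20, and 1.08, 2.94, 1.42 and 1.11 TPM in DOX 9, 12, 19 and 21. As for Egf, DMSO 20 was highest and DMSO 5 second highest, and the groups overlapped.

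Of the distal convoluted tubule genes, Slc12a3, which encodes NCC, was close to undetected. This gene lies on the plus strand of chromosome 8 at 94329109 to 94366222. It had 98 counts (0.588 TPM) in DMSO 3, 20 counts (0.123 TPM) in DOX 9 and none in the other 6 libraries, where 3 counts would have been 0.0187 to 0.0298 TPM. Pvalb, on chromosome 15 at 78191112 to 78206400, marks the early distal convoluted tubule. Its 2 counts were both in DOX 12 (0.0456 TPM), under the level of 3 counts, which was 0.0658 to 0.109 TPM across the libraries.

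Trpm6, by contrast, was counted in 6 of 8 libraries. It encodes the magnesium channel of the distal convoluted tubule and lies on the plus strand of chromosome 19 at 18730177 to 18892521. Its levels were 1.62, 0.953, 0.549 and 0 TPM in DMSO 3, 5, 15 and 20, and 0.900, 0.692, 0 and 0.840 TPM in DOX 9, 12, 19 and 21. The 6 libraries with counts held 169 to 534 of them, and the 2 without were DMSO 20 and DOX 19. In DOX 21, where Umod was near its floor, Trpm6 was close to its levels in DOX 9 and DOX 12.

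Calb1 was the only member above the median gene. It lies on chromosome 4 at 15881264 to 15906709 and ranked 6762 by mean TPM, against a median of 6.55 TPM over all genes with counts. Its levels were 24.5, 68.1, 1.11 and 0.0114 TPM in DMSO 3, 5, 15 and 20, and 13.2, 25.9, 4.58 and 3.17 TPM in DOX 9, 12, 19 and 21. The DMSO group thus held both the highest library, with 7175 counts, and the lowest, with 1 count. All 4 DOX libraries lay between DMSO 15 and DMSO 5. Slc12a3 was much lower than Calb1 wherever both were counted, since the TPM of Calb1 was 41.7 times that of Slc12a3 in DMSO 3 and 107 times in DOX 9. With only the most abundant transcript per gene, which lowers Slc12a3 with its pair of listed isoforms, the ratios were 83.5 and 213.

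Trpv5, the calcium channel of the late distal convoluted and connecting tubules, lies on the minus strand of chromosome 6 at 41651661 to 41681224, beside its paralog Trpv6. It had 26 counts (0.198 TPM) in DMSO 3, 16 counts (0.167 TPM) in DMSO 5, 10 counts (0.0782 TPM) in DOX 9 and 1 count in DOX 21. Trpv6 was far more abundant where both passed 3 counts, at 66.2 times the TPM of Trpv5 in DMSO 3, 48.7 times in DMSO 5 and 73.4 times in DOX 9. How reads shared by these paralogs were assigned was not stated, so their split is uncertain. RefSeq also places other, little-studied genes over parts of Slc12a1, Egf, Trpm6 and Trpv5, and since the libraries do not mark strand, reads from an overlapping gene cannot be told apart from theirs.

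**Figure D1:**
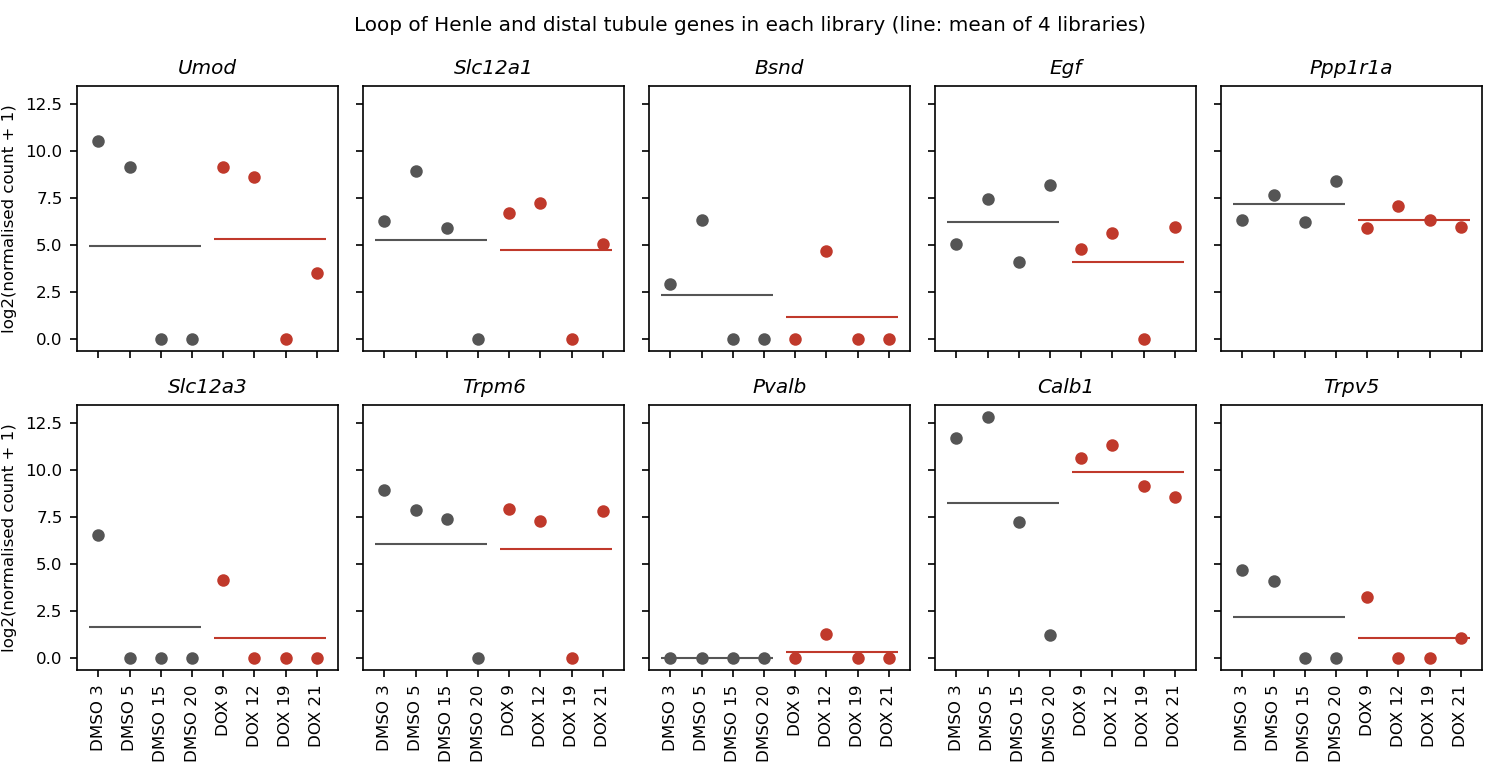
Level of each gene in each library. The vertical axis is log2(normalised count + 1), the points are libraries (grey DMSO, red DOX) and the lines are means of 4 libraries. Umod, Slc12a1 and Calb1 cover a wide range within both groups, whereas Ppp1r1a is counted in all 8 libraries and Pvalb has a single point above 0.

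By mean TPM over 8 libraries the order was Calb1, Umod (3.46 ± 4.32), Ppp1r1a (2.49 ± 2.03), Trpm6 (0.695 ± 0.532), Slc12a1 (0.635 ± 0.942), Egf (0.438 ± 0.552), Bsnd (0.136 ± 0.276), Slc12a3 (0.0889 ± 0.206), Trpv5 (0.0567 ± 0.0826) and Pvalb (0.0057 ± 0.0161; SD, n = 8 each). The ranges of every pair of neighbours in this order overlapped. Within libraries, Calb1 exceeded Umod in 7 of 8, the exception being DMSO 20 with 1 count and none, Ppp1r1a exceeded Trpm6 in 7 of 8 and Umod exceeded Ppp1r1a in 4 of 8. The order depends in part on how transcripts were summed. Umod, Slc12a1 and Slc12a3 each had a pair of listed isoforms, whose counts were the same in 4 of 5, 5 of 6 and 2 of 2 libraries with counts and otherwise differed by 1. With only the most abundant transcript per gene, Umod (mean 1.71 TPM) fell below Ppp1r1a, Slc12a1 (0.318 TPM) below Egf and Slc12a3 (0.0445 TPM) below Trpv5. Whether shared reads were counted for each isoform or divided between them was not tested, and in the latter case the sums stand. The other 7 genes had 1 transcript each. Only Calb1 and Ppp1r1a were counted in all 8 libraries, which is 2 of 10 members against 61.81% of all genes with counts. Leaving out DMSO 20 and DOX 19, 5 of 10 (Calb1, Ppp1r1a, Trpm6, Slc12a1 and Egf) were counted in all 6 remaining libraries, against 80.2% of genes, and the order by mean TPM was the same.

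The cultures differed strongly in how many of these genes they held. Of the 10 genes, 9 were detected in DMSO 3, 8 in DMSO 5, 5 in DMSO 15 and 3 in DMSO 20. The corresponding numbers were 8 in DOX 9, 8 in DOX 12, 2 in DOX 19 and 7 in DOX 21. Their summed level was 40.8, 83.8, 3.20 and 8.28 TPM in DMSO 3, 5, 15 and 20, and 21.3, 35.5, 6.0 and 5.69 TPM in DOX 9, 12, 19 and 21. DMSO 3, DMSO 5, DOX 9 and DOX 12 were thus the 4 highest libraries, with 2 of them in each group. Calb1 made up most of this sum except in DMSO 15 and DMSO 20, where Ppp1r1a was the highest member.

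Measured as the SD of log2(normalised count + 1) over the 8 libraries, Umod varied more than 99.8% of genes with counts (SD 4.71). Trpm6 (SD 3.68) and Calb1 (SD 3.67) each varied more than 97.5%, and Slc12a1 (SD 3.29) more than 94.8%. Bsnd (2.56), Slc12a3 (2.55), Egf (2.48) and Trpv5 (2.03) lay at 79.5% to 86.5%. Ppp1r1a (SD 0.903) lay near the middle, above 57.0% of genes, and Pvalb (0.451) was low because nearly all its values were 0. Part of this spread lay in DMSO 20 and DOX 19, the libraries with few genes detected. Over the other 6 libraries, Trpm6 had an SD of 0.589, above only 54.9% of genes, with 156 to 497 normalised counts. Slc12a1 (SD 1.34) then lay above 85.5% of genes, Egf (1.15) above 80.7% and Ppp1r1a (0.700) above 62.2%. Umod (SD 4.13) still varied more than 99.9%, and Calb1 and Trpv5 (both 2.09) more than 95.8%. Bsnd (2.75) and Slc12a3 (2.86) lay higher than before, above 98.9% and 99.1% of genes, with counts in 3 and 2 of the 6 libraries.

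The median SD over 8 libraries was 2.56 for the 10 genes and 0.735 for all 19634 genes with counts. It was higher than that of the 10 genes for the 14 thick ascending limb companions (2.98), the principal cell markers (2.81) and the macrophage markers (3.10), and somewhat lower for the proximal tubule (2.40) and intercalated cell markers (2.34). It was much lower for the distal convoluted tubule regulators (0.821), the general epithelial markers (0.864), the thin limb genes (1.18) and the genes of calcium transport and the connecting tubule (1.56). Over the 6 libraries the median was 1.71 for the 10 genes, 1.79 for the companions and 0.520 for all genes. Pkd2, for comparison, had an SD of 0.279, higher than that of 9.25% of genes. Genes that are missing from some libraries reach a high SD on this scale, so this places the members among all genes and is no test.

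**Figure D2:**
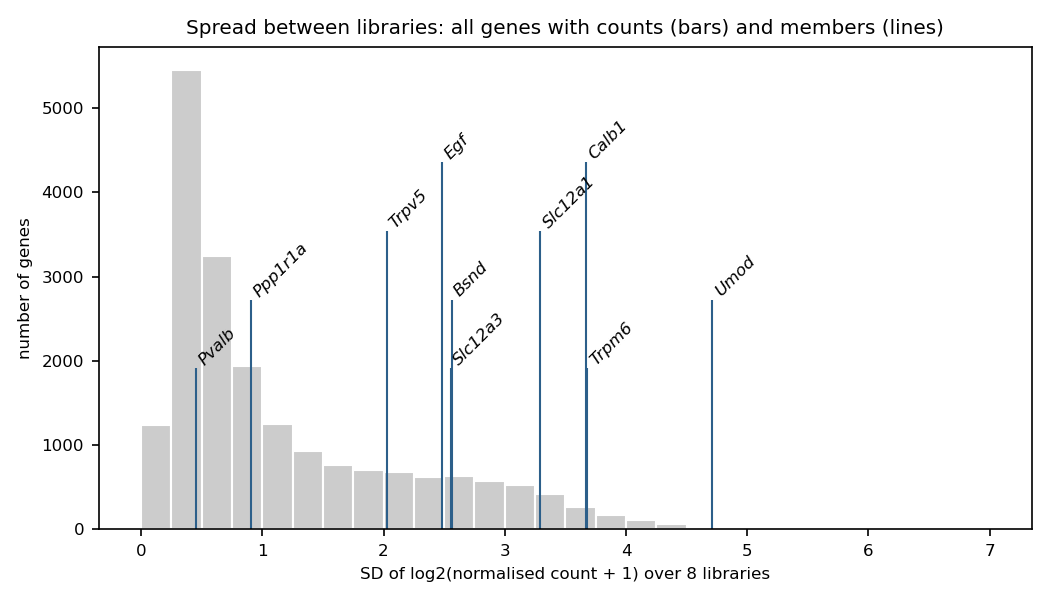
Spread between libraries. Bars count all genes with at least 1 count by the SD of log2(normalised count + 1) over 8 libraries, and the vertical lines mark the 10 members at heights set for legibility. Umod, at 4.71, stands in the far tail, Ppp1r1a, at 0.903, stands near the bulk of genes, and Trpm6, at 3.68, falls to 0.589 when DMSO 20 and DOX 19 are left out.

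The highest library was DMSO 3 for Umod, Slc12a3, Trpm6 and Trpv5, DMSO 5 for Slc12a1, Bsnd and Calb1, DMSO 20 for Egf and Ppp1r1a, and DOX 12 for Pvalb, by normalised count. None of the 10 genes was highest in DMSO 15, DOX 9, DOX 19 or DOX 21. Over all genes with counts, DMSO 3 was the highest library for 10.3%, DMSO 5 for 17.0% and DMSO 20 for 17.0%. Among 14 other thick ascending limb genes, 8 were highest in DMSO 5.

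These 14 companions include the potassium channel Kcnj1, the ClC-K channels, the claudins and the calcium-sensing receptor, and like Umod they were uneven between the libraries of both groups. Their summed level was 153, 300.2, 28.8 and 3.31 TPM in DMSO 3, 5, 15 and 20, and 139, 239, 1.76 and 61.1 TPM in DOX 9, 12, 19 and 21. Counts were found for 13 or 14 of them in DMSO 3, DMSO 5, DOX 9 and DOX 12, for 10 in DOX 21 and 7 in DMSO 15, and for 1 in DMSO 20 and 3 in DOX 19. Cldn10, a claudin of the paracellular sodium path, was the most abundant when summed over its several listed isoforms, at 0 to 129 TPM in DMSO and 0 to 175 TPM in DOX libraries, and had no count in DMSO 20 and DOX 19. Tmem207 was the lowest, with 8 counts in DMSO 3 only. Kcnj1, chosen after its values were seen, had 3.76, 14.4, 0 and 0 TPM in DMSO 3, 5, 15 and 20, and 1.56, 9.08, 0 and 0.230 TPM in DOX 9, 12, 19 and 21, so it was at 0 in the same 3 libraries as Umod. Other companions were not, since Cldn10 had 21.1 TPM in DMSO 15 and 42.8 TPM in DOX 21, where Umod was at 0 and 0.0966 TPM.

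The 16 regulators of the distal convoluted tubule, among them the WNK kinases and their partners, summed to 637 to 1151 TPM in DMSO and 581 to 913 TPM in DOX libraries. Sgk1, a kinase induced by aldosterone in the distal nephron and made in many other cells, led the list with a mean of 425 TPM, and Emx1 was lowest at 0.0130 TPM. Sgk1 and other broadly made genes dominate this sum, and single genes of the list were as uneven as the members. Kcnj16, a basolateral potassium channel subunit chosen after its values were seen, had 20.4, 67.5, 0.548 and 0 TPM in DMSO 3, 5, 15 and 20, and 10.0, 24.8, 0 and 1.02 TPM in DOX 9, 12, 19 and 21. By normalised count, 7 of the 16 genes were highest in DMSO 5, as Calb1 and Slc12a1 were. The 11 genes of calcium transport and the connecting tubule summed to 83.2 to 148 TPM in DMSO and 78.8 to 171 TPM in DOX libraries, led by the parathyroid hormone receptor Pth1r (mean 55.3 TPM), with the klotho gene Kl lowest (0.0721 TPM). S100g, the small calbindin, was chosen after its values were seen, and it did not follow Calb1. The TPM of Calb1 was 4.13, 2.62, 4.93 and 3.80 times that of S100g in DMSO 3, DMSO 5, DOX 9 and DOX 12, but 0.306, 0.160 and 0.119 of it in DMSO 15, DOX 19 and DOX 21. The 6 thin limb genes summed to 335 to 718 TPM in DMSO and 298 to 451 TPM in DOX libraries. The small heat shock protein gene Cryab led them (mean 268 TPM) and the water channel gene Aqp1, also a gene of the proximal tubule, was lowest (0.430 TPM). Cryab made up much of these sums, at 95.6 TPM in DMSO 5 and 623 TPM in DMSO 15. The sums therefore do not give the level of the other genes of the list.

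**Figure D3:**
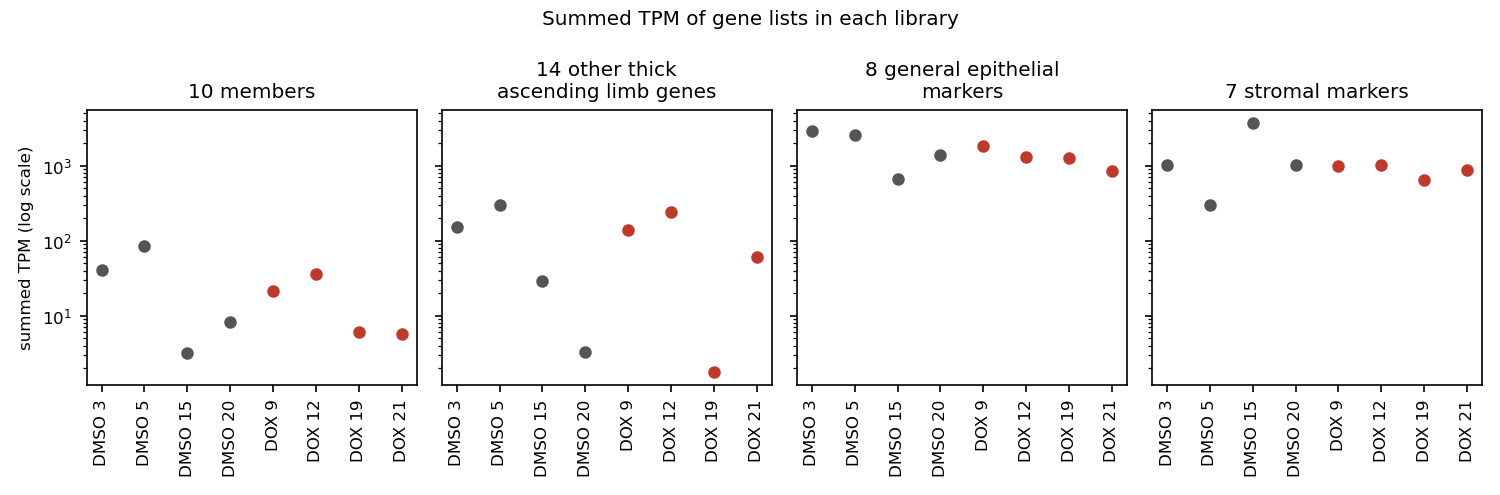
Summed TPM of 4 gene lists in each library, on a log axis (grey DMSO, red DOX). The 10 members and the 14 other thick ascending limb genes range widely within both groups, with the latter lowest in DMSO 20 and DOX 19, whereas the 8 general epithelial markers stay between 661 and 2869 TPM.

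Markers of other cells were measured in the same libraries, and their part in the spread was not tested. The 8 general epithelial markers were all detected in every library and summed to 661 to 2869 TPM in DMSO and 843 to 1818 TPM in DOX libraries, from Krt19 at a mean of 421 TPM to Pax2 at 1.67 TPM. The TPM of Umod, summed over its isoforms, was 0.0162 to 0.0212 of that of Krt8, a keratin of simple epithelium, in DMSO 3, DMSO 5, DOX 9 and DOX 12, and 0.0006 in DOX 21. The 9 principal cell markers, of the collecting duct, summed to 14.3 to 496 TPM in DMSO and 41.3 to 120 TPM in DOX libraries, highest in DMSO 5 as for Calb1, with Fxyd4 leading (65.5 TPM) and Aqp2 counted in 1 library. The 6 intercalated cell markers summed to 0 to 10.6 TPM in DMSO and 1.12 to 8.03 TPM in DOX libraries, from Atp6v0d2 (4.72 TPM) to Slc4a1 (0.0123 TPM). The 7 stromal markers summed to 298 to 3735 TPM in DMSO and 644 to 1019 TPM in DOX libraries, led by Acta2 (291 TPM), with Pdgfra lowest (18.5 TPM). DMSO 15, where the summed TPM of the 10 members was lowest, was the library with the highest stromal sum and the lowest epithelial sum. More members were detected there (5) than in DMSO 20 (3) or DOX 19 (2), and Calb1 was lowest in DMSO 20. The 8 proximal tubule markers summed to 6.13 to 23.7 TPM in DMSO and 7.33 to 12.8 TPM in DOX libraries, led by Slc5a2 (10.2 TPM), and Slc34a1 was counted in 1 library. The remaining lists ran from Synpo (25.8 TPM) to Nphs1 (0.154 TPM) for podocytes, from Emcn (69.8 TPM) to Cdh5 (0.0442 TPM) for endothelium, from Cd68 (7.01 TPM) to Csf1r (0.108 TPM) for macrophages, from Spp1 (99665 TPM) to Havcr1 (3.78 TPM) for tubule injury, and from Tnnt3 (4.04 TPM) to Myh4, at 0, for skeletal muscle. Of the adrenal cortex markers Hsd3b1 was at 0, and Cyp11a1, which starts steroid synthesis, was the only gene of any list that was called, lower with DOX, where DESeq2 gave an adjusted p of 0.000858 (log2 fold change -3.96, SE 0.777) and edgeR an adjusted p of 0.999. Cyp11a1 was at 2.43 to 47.9 TPM in DMSO and 0.928 to 1.67 TPM in DOX libraries, and the summed adrenal level was highest in DMSO 20, as Egf and Ppp1r1a were.

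The comparison of DOX with DMSO asked whether these transcripts changed with doxycycline, which induces Cre in the epithelium. All cultures had the same genotype, so effects of the drug itself, of Cre and of Pkd2 loss cannot be told apart. DESeq2 called none of the 10 genes, where a call needed 1.5-fold and an adjusted p no higher than 0.05. It called 25 of the 17011 genes with an adjusted p, or 0.147%, of which 11 were lower (0.0647%) and 14 higher (0.0823%) with DOX. None had an unadjusted p under 0.05 either, against 4.67% of 19268 genes. The edgeR test, which kept 6 of the 10 (Umod, Slc12a1, Egf, Ppp1r1a, Trpm6 and Calb1), called none of them and gave none an unadjusted p under 0.05. Over all 15562 genes edgeR called 0 (0.0%) and gave 476 (3.06%) an unadjusted p under 0.05. The groups overlapped for all 10 genes, whereas they did not for 2.45% of genes with counts.

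Nearly all point estimates were negative, with wide intervals that held 0. Ppp1r1a had the narrowest, with 173 ± 125 normalised counts in DMSO against 82.2 ± 34.2 in DOX libraries (SD, n = 4 each) and a log2 fold change of -1.07 (95% Wald interval -2.34 to 0.20). Egf followed with 128 ± 130 and 33.8 ± 26.5 normalised counts and a log2 fold change of -1.92 (-4.50 to 0.65). In both, the highest value was that of DMSO 20. Without DMSO 20 and DOX 19 the log2 fold changes were -0.48 for Ppp1r1a and -0.66 for Egf, with 3 libraries a group. The same omission moved the other members little, with log2 fold changes of -1.02 for Umod, -1.10 for Slc12a1, -0.49 for Trpm6 and -1.21 for Calb1. It gave -1.79 for Bsnd, -2.38 for Slc12a3 and -2.03 for Trpv5.

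Calb1 averaged 2673 ± 3400 normalised counts in DMSO and 1270 ± 1011 in DOX, a log2 fold change of -1.07 (-3.84 to 1.70). Leaving out DMSO 5, its highest library, turned the estimate to 0.14. For Umod the log2 fold change was -1.05 (-6.82 to 4.72), and it became 0.40 without DMSO 3. Slc12a1 gave -1.13 (-4.62 to 2.36) and 0.67 without DMSO 5, and Trpm6 gave -0.51 (-3.84 to 2.81) and 0.24 without DMSO 3. The direction of these 4 estimates therefore rested on a single DMSO library each, and all 4 intervals reach beyond 1 log2 unit in both directions.

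The remaining genes were counted in at most 4 libraries. Bsnd and Slc12a3 received no p-value from DESeq2, whose Cook filter sets aside genes with an extreme library. With that filter and independent filtering off, DESeq2 gave both an adjusted p of 0.999. Their estimates of -1.81 and -2.42 became 1.48 without DMSO 5 and 4.41 without DMSO 3. Without DMSO 3 the DMSO group of Slc12a3 had no count, so the latter is a fitted value and no bound. Trpv5 had a log2 fold change of -2.08 (-7.80 to 3.65), which was -1.17 without DMSO 3 and -4.90 without DOX 9. Pvalb was at or under 3 counts in every library and no fold is given. All 7 members with an adjusted p (Umod, Slc12a1, Egf, Ppp1r1a, Trpm6, Calb1 and Trpv5) had a value of 0.999. The median log2 fold change was -1.13 over the 9 genes above 3 counts, beside -0.08 over all genes with counts, of which 55.5% had a negative estimate. Negative estimates also prevailed in other lists, with 7 of 9 principal cell, 8 of 8 general epithelial (median -0.59) and 4 of 4 macrophage markers (median -1.68), whereas 5 of 5 podocyte markers had positive estimates. The summed TPM of the macrophage markers was 15.9 to 29.4 in DMSO and 0.007 to 12.2 in DOX libraries, without overlap. For each of the 4 genes alone the groups overlapped, and none was called or had an unadjusted DESeq2 p under 0.05. The part of these markers in the members' estimates was not tested. Several members had their highest values in the same DMSO libraries, so their shared sign is not independent evidence.

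**Figure D4:**
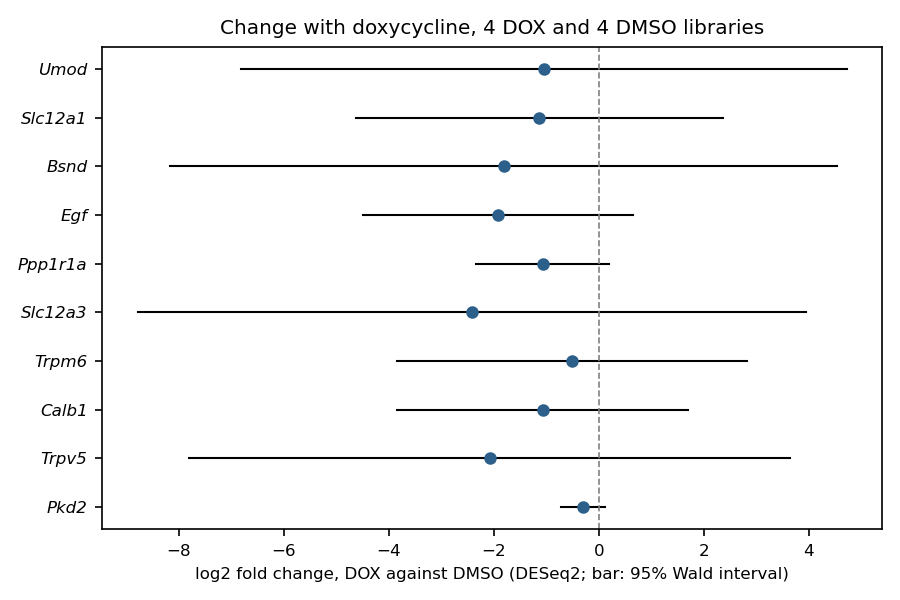
Log2 fold change of each gene, DOX against DMSO, from DESeq2 (points) with 95% Wald intervals (bars), 4 libraries a group. Pvalb is left out because both groups were at or under 3 counts. Every interval holds 0, and that of Pkd2 (-0.73 to 0.11) is much narrower than those of the 9 members.

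None of the 47 other genes of the 4 companion lists was called either, and 43 of them had an adjusted p. Over all genes with an adjusted p, DESeq2 called 0.147%. Of the 47, 1 had an unadjusted p under 0.05 by DESeq2 (4.67% of all genes), and 0 of 42 by edgeR (3.06%). Of the 14 thick ascending limb genes, 11 had a negative and 3 a positive estimate, with a median log2 fold change of -0.80. The smallest unadjusted p was that of Pou3f3, a transcription factor of the loop of Henle, at 4.52 ± 3.34 TPM in DMSO and 2.65 ± 1.81 TPM in DOX (log2 fold change -0.83, SE 0.686; DESeq2 adjusted p = 0.999). The 6 thin limb genes had 5 negative estimates and a median of -0.48, with Bst1 having the smallest p (log2 fold change -1.57, SE 0.825; DESeq2 adjusted p = 0.972). The 16 distal convoluted tubule regulators had 12 negative estimates and a median of -0.44. Klhl3, part of the ligase that removes WNK kinases, had the smallest p in that list (log2 fold change -1.32, SE 0.781; DESeq2 adjusted p = 0.999). The 11 genes of calcium transport and the connecting tubule had 7 negative and 4 positive estimates and a median of -0.03. Atp2b4, a plasma membrane calcium pump, was the gene under 0.05 before adjustment, at 1.31 ± 0.880 TPM in DMSO and 0.467 ± 0.288 TPM in DOX (log2 fold change -1.60, SE 0.769; DESeq2 adjusted p = 0.885). In total 35 of the 47 estimates were negative.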

How the data were processed

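The 8 libraries were poly-A selected and made with a low-input kit (SMART-Seq v4) that does not mark strand, then sequenced paired-end. The submitters' processing notes name STAR, featureCounts, DESeq2 and the build mm10 (GRCm38), with versions not given in the sources used here. The deposited count is the number of reads the authors assigned to each RefSeq transcript. The deposited FPKM and TPM are those counts scaled by the authors for transcript length and library total; FPKM was used only for the TPM that 3 counts would give. The isoforms of Umod, Slc12a1 and Slc12a3 had identical counts or counts that differed by 1 in every library, so shared reads may have been counted for each isoform or divided between them.

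Counts and TPM were summed by gene symbol. Groups were taken from the titles. DOX was compared with DMSO by the DESeq2 1.42.0 Wald test (R 4.3.3) over all genes, unpaired, with independent filtering at alpha 0.1, Benjamini-Hochberg adjustment and unshrunken fold changes. Calls needed 1.5-fold and an adjusted p no higher than 0.05. Beside it, edgeR 4.0.16 was run with its quasi-likelihood test, and both were tested on simulated data. Other size factors, filters, transcript sums and subsets of libraries were tried as alternatives. Of the 28 pairs of libraries, none agreed within sampling noise, with chi-square values of 328 to 1066 per degree of freedom. Intervals and floors cover counting error or library spread only. Coordinates and promoters are from RefSeq on GRCm38.p6, matched by symbol.

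The members, gene lists and tests were chosen with earlier results of these data known. All 10 members are named; of each other list the genes with the highest and lowest mean TPM, every gene called, and in the 4 companion lists the gene with the smallest p. Kcnj1, Kcnj16, S100g, Trpv6 and Krt8 are named outside this rule. Adgre1, a macrophage marker, was not analysed here.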

Additional observations from a re-analysis of the deposited data

Results flagged for a closer look

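In groups of 4, Dixon's test set apart 7 of 60 groups examined. For Slc12a3, Bsnd and Pvalb the other 3 libraries were at 0, so that any count would be set apart, and their number is not read against the 1 in 20 that chance gives. Values of genes are log2(normalised count + 1). Slc12a3 was 6.53 in DMSO 3 with the other 3 DMSO libraries at 0, and 4.17 in DOX 9 with the other 3 DOX libraries at 0. Bsnd was 4.65 in DOX 12 with the other DOX libraries at 0. Pvalb was 1.28 in DOX 12, from 2 counts, with the other DOX libraries at 0. Trpm6 was 0 in DOX 19, whereas the other DOX libraries lay between 7.29 and 7.94. DOX 19 also stood apart in the number of genes detected, 13599 against 17342 to 17903, and in the number of members detected, 2 against 7 to 8. The part of gene detection in the Trpm6 value was not tested.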

How the results depend on the processing

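No member and no companion gene that could be tested was called under any of 15 alternatives. Of the 47 companions, 43 had an adjusted p in the main fit and 42 were tested with edgeR. With at least 10 counts required in every library 23 remained, and 46 had counts without DMSO 3. The number of all genes called, 25, was 0 with edgeR, 51 without DMSO 20 and DOX 19, 44 with the Cook and independent filters of DESeq2 off and 16 with at least 10 counts required in every library, a filter that only Ppp1r1a of the members passed. Leaving out each library gave 14 (without DMSO 3) to 75 (without DMSO 15), with 48 without DMSO 20 and 38 without DOX 21. The cause was not tested. Of the member log2 fold changes, 6 changed sign when a library was left out. Over the libraries left out in turn, the ranges were -1.90 to 0.40 for Umod, -21.2 to 4.41 for Slc12a3 and -0.92 to 0.24 for Trpm6, positive only without DMSO 3, and -1.79 to 0.67 for Slc12a1, -6.86 to 1.48 for Bsnd and -1.68 to 0.14 for Calb1, positive only without DMSO 5. Without a change of sign, the ranges were -2.34 to -1.11 for Egf, -1.39 to -0.52 for Ppp1r1a and -4.90 to -1.17 for Trpv5. The values of Slc12a3 and the lowest of Bsnd were fitted with 1 group at 0 counts and are no bounds. The other 66 such values and 43 values under other settings kept their sign. The median member log2 fold change, -1.13, ran from -1.68 (without DOX 12) to -0.94 (without DOX 21) and was -1.10 over all 10 members, an alternative chosen after seeing the data, as was the spread over 6 libraries, where the SD of Trpm6 fell from 3.68 to 0.589. No paired analysis was possible because the groups shared no library number. At this depth transcripts at or below 3 counts, such as Pvalb, cannot be compared.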
